A study of Mus musculus with 36 samples.

Results

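A pair of stimuli that drive RIPK1-dependent death in cultured mouse microglia were compared directly with each other. One, T/S/Z, joined TNF to a Smac mimetic and to zVAD, and the other, T/5z, joined TNF to 5z-7. The comparison used 8 RNA-seq libraries of the 24 microglial libraries, which are part of 36 in the series, 4 per stimulus, which the labels number 1 to 4, and T/S/Z library 1 was set against T/5z library 1 and so on. Of 15385 genes in the table, the 10524 that reached a log2 value of 1 in 4 or more of the 24 libraries were tested. A positive difference is a higher level in T/S/Z throughout.

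All microglia came from C57BL/6 mice of 2 to 4 days of age. Brains were pooled, mixed glia were cultured for 12 days, and CD11b-selected cells were treated for 4 h. Both groups received TNF. The T/5z group also received 5z-7, an inhibitor of the kinase TAK1, and the T/S/Z group received a Smac mimetic and the pan-caspase inhibitor zVAD. The same microglia were also treated with DMSO alone, with Nec-1s (N), an inhibitor of the RIPK1 kinase, and with each stimulus plus Nec-1s (written T/S/Z/N or T/5z/N). The study's methods describe replicates of isolated cells as coming from different litters, a statement made for its experiments in general. The labels number the libraries and name no litter, and the p-values measure the spread between these libraries.

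TNF binds its receptor TNFR1 and assembles a complex in which RIPK1, the cIAP ubiquitin ligases and TAK1 pass the signal to NF-kB and to the MAP kinases. Smac mimetics remove cIAP proteins, and with caspases blocked by zVAD the RIPK1 and RIPK3 kinases can activate MLKL, the executor of necroptosis. When TAK1 is inhibited instead, RIPK1 can drive a caspase-8-dependent apoptosis, and signalling from TAK1 to NF-kB and the MAP kinases is reduced as well. The stimuli therefore differ in the form of death and in which kinases remain able to signal.

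Values are on a log2 scale of FPKM, a fragment count divided by gene length and library size, scaled and log transformed by the authors, and were read as log2(FPKM + 1). Libraries 1 to 3 of both stimuli also hold 187 to 768 negative values each, which that transform cannot give, and library 4 holds 0. Averaged across the 6 treatments, each gene has 1 level in libraries 1 to 4 alike. A mere shift of each gene per library number would leave differences within a pair unchanged but move the levels. Whether the step was only a shift is not known. Summed FPKM below was computed from these values with negative ones set to 0. Differences are on that scale and understate the change of genes with low levels. The genes described below were grouped into 29 lists holding 588 genes, of which 535 were tested, 42 were below the minimum and 11 were not listed. The libraries were alike in scale, with 9697 to 9842 genes at a log2 value of at least 1 in T/S/Z and 9785 to 10128 in T/5z. In a principal component analysis of all 24 libraries the first component, which held 65.0% of the variance, placed the stimuli side by side, at 30.2 to 31.6 in T/5z and 33.7 to 39.1 in T/S/Z against -43.7 to -37.2 in DMSO. The second component, which held 17.1% of the variance, ran from 23.2 to 32.8 in T/S/Z and from -17.8 to -11.0 in T/5z. The microglial label was checked against 12 markers, all of which passed the filter. C1qa, Csf1r and Tyrobp were at mean log2 values of 11.7, 9.96 and 10.2 in T/5z, the summed FPKM of the 12 markers was 9876 to 11364 in T/5z and 10513 to 11371 in T/S/Z, and P2ry12, a defining marker of resting microglia, was low in both groups at 1.78 and 1.83. None of the 5 lymphocyte markers was listed. Of the fibroblast and mural cell markers, 4 of the 5 tested (Col1a1, Col1a2, Col3a1 and Acta2) were lower in T/S/Z, with a summed FPKM of 6.80 to 10.9 against 16.2 to 28.7 in T/5z and 8.25 to 11.0 in DMSO. Summed FPKM in T/5z and T/S/Z was 722 to 914 and 844 to 907 for macrophage markers, 12.1 to 22.2 and 13.7 to 19.9 for astrocyte markers, 45.8 to 49.6 and 45.2 to 54.9 for oligodendrocyte lineage markers, and 5.27 to 6.18 and 3.41 to 3.97 for endothelial markers. It was 9.14 to 20.7 and 5.13 to 18.2 for monocyte and neutrophil markers and 1.13 to 3.24 and 1.45 to 3.40 for neuronal markers. Cspg4, of the oligodendrocyte lineage, was called higher at 1.40 and Camp, of neutrophils, was called lower at -0.98. The part of these other cells in the differences below was not tested. In bulk RNA, fewer cells of a type and less RNA per cell cannot be told apart.

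The stimuli left different transcriptomes. Of 10524 genes, 1035 (9.83%) were called, meaning a difference of over 1.5-fold with an adjusted p under 0.05 in limma's moderated test with the replicate number as a block. T/S/Z was higher for 570 of them (5.42%) and lower for 465 (4.42%). The median difference was 0.90 among the genes called higher, -0.82 among those called lower and -0.03 over all genes tested. The counts of list members that follow are to be read against these shares of all genes, and no list was tested as a set. Of the 1035 calls, 194 (18.7%) were lost when at least 1 of the 4 replicate numbers was left out. Differences of over 4-fold were found for 38 genes higher and 12 genes lower in T/S/Z, and 14 genes were over 8-fold higher. The libraries of the 2 groups did not overlap for 559 of the 570 and 457 of the 465, against 45.9% of all genes tested.

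**Figure D1:**
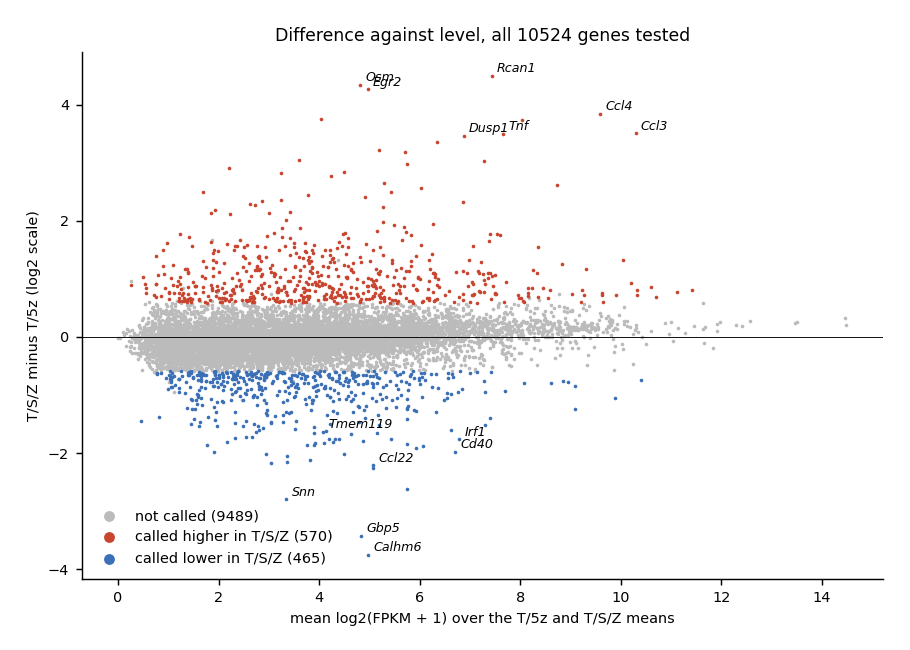
Difference between T/S/Z and T/5z (vertical axis, log2 scale) against the mean level over both groups (horizontal axis, log2(FPKM + 1)) for the 10524 genes tested, 1 point per gene. The largest differences lie above 0, up to 4.50 for Rcan1, and the lowest point is Calhm6 at -3.75.

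Rcan1, an inhibitor of calcineurin, had values of 5.23, 5.30, 5.34 and 4.86 in T/5z libraries 1 to 4 and of 9.59, 9.50, 9.55 and 10.07 in T/S/Z. The difference was 4.50 ± 0.16 (SE, n = 4 pairs; adjusted p = 7.66e-06), or 22.6-fold, the largest among the genes tested. Its DMSO mean was 4.70, so the T/5z libraries lay close to the vehicle and the T/S/Z libraries far above it. Osm, which encodes the cytokine oncostatin M, stood at 2.70, 2.58, 2.81 and 2.48 in T/5z and at 6.59, 6.64, 7.11 and 7.62 in T/S/Z, a difference of 4.35 ± 0.19 (adjusted p = 1.11e-05). Its T/5z mean of 2.64 was under the DMSO mean of 3.52. For both genes the groups were separate, with several log2 units between the highest T/5z and the lowest T/S/Z library.

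**Figure D2:**
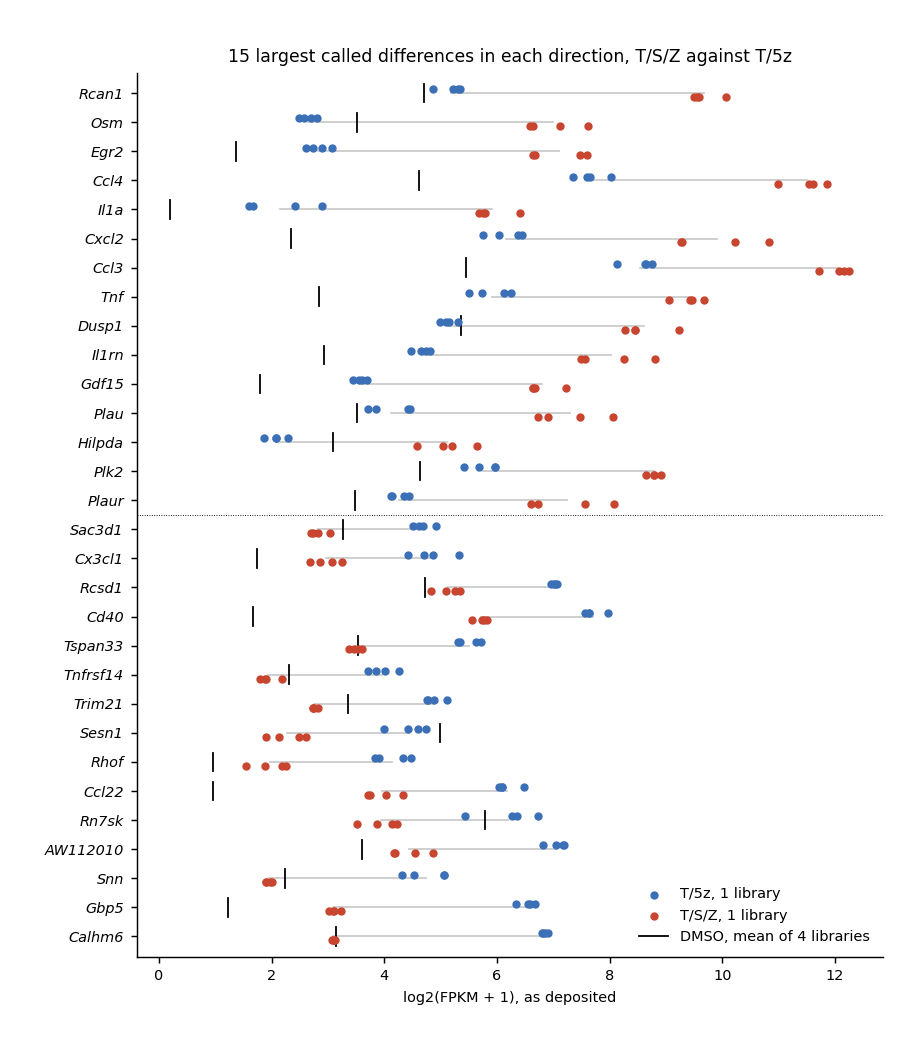
Levels (log2(FPKM + 1)) of the 15 genes with the largest called differences in each direction, among genes with the same sign in 4 of 4 pairs and a mean of at least 3 in the higher group. Blue and red points are single T/5z and T/S/Z libraries, black ticks are the mean of 4 DMSO libraries, and grey lines join the group means. No T/S/Z point crosses a T/5z point in any of the 30 genes, and the DMSO tick lies below both groups for Tnf, Ccl3, Ccl4 and Cd40.

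Transcription factors of the immediate early class, which are switched on within minutes of a stimulus without new protein synthesis, were higher in T/S/Z. Of 24 tested members of the EGR, AP-1 and NR4A list, 16 were called and all 16 were higher, against 5.42% of all genes, with a median difference of 1.47 over the 24. Egr2 was at 2.74, 2.89, 3.07 and 2.61 in T/5z and at 6.63, 6.68, 7.48 and 7.60 in T/S/Z, a difference of 4.27 ± 0.18 (adjusted p = 1.11e-05). Nr4a3 differed by 2.92 ± 0.43 (adjusted p = 0.00181) and Egr1 by 2.77 ± 0.49 (adjusted p = 0.00437). The pair differences of Egr1 were 1.57, 1.55, 3.22 and 4.73, and without replicate 4 its difference was 2.11. Nr4a1, at 1.73, lost its call without replicate 3 (1.56, adjusted p = 0.115) and without replicate 4 (1.08, adjusted p = 0.0512). Egr3, Jun, Nr4a1, Maff, Fosl1, Fosl2, Klf4 and Klf6 were also called. Fos, with a difference of -0.04, Junb, with 0.23, and Nr4a2, with 0.21, were not called, so the members moved unequally. With each gene's own variance in place of the moderated one, 7 members were called, and Nr4a3 and Egr1 were among those that missed the threshold (adjusted p = 0.0698 and 0.0963).

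Genes that limit MAP kinase signalling were split. Dusp1, a nuclear phosphatase that inactivates p38 and JNK, was at 5.10, 5.15, 5.30 and 4.99 in T/5z and at 8.28, 8.45, 8.46 and 9.24 in T/S/Z, and differed by 3.47 ± 0.17 (adjusted p = 1.93e-05). The T/5z libraries lay under the DMSO mean of 5.35 and the T/S/Z libraries above it. Dusp4 differed by 2.85 ± 0.15 (adjusted p = 2.01e-05) and Spry2, an inhibitor of ERK signalling, by 1.67 ± 0.14 (adjusted p = 0.000142). Dusp2 went the other way, from 5.09 ± 0.32 in T/5z to 3.33 ± 0.21 in T/S/Z (SD, n = 4), a difference of -1.76 ± 0.09 (SE; adjusted p = 1.93e-05). Of 13 tested members, 6 were higher in T/S/Z, 1 was lower, and the median difference was 0.58.

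Cytokine genes were mostly higher in T/S/Z, with 15 called higher and 2 lower among 24 tested and a median difference of 1.13. Tnf itself was at 6.12, 6.25, 5.51 and 5.74 in T/5z and at 9.68, 9.43, 9.06 and 9.46 in T/S/Z, a difference of 3.50 ± 0.09 (adjusted p = 1.74e-06). Its DMSO mean was 2.85, so both groups lay above the vehicle and T/S/Z lay furthest. Il1a, an alarmin of the interleukin-1 family, was at 2.90, 2.42, 1.60 and 1.67 in T/5z and at 5.75, 5.79, 5.69 and 6.41 in T/S/Z, and differed by 3.76 ± 0.27 (adjusted p = 7.07e-05). Il1b differed less, by 1.78 ± 0.18 (adjusted p = 0.000361), and Il1rn, which encodes the antagonist of both, by 3.36 ± 0.25 (adjusted p = 7.93e-05). Gdf15, a stress-induced member of the TGF-beta family, differed by 3.22 ± 0.13 (adjusted p = 9.87e-06). The other called members with higher levels included Pdgfb, Tnfsf9, Hbegf, Lif, Csf2 and Ifnb1, of which Ifnb1, at 0.88, lost its call without replicate 3 (adjusted p = 0.0556).

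The cytokine genes that were lower in T/S/Z were Il15, which supports natural killer and memory T cells, and Csf1, a survival factor of microglia. Il15 differed by -1.65 ± 0.09 (adjusted p = 2.33e-05). Csf1 differed by -0.74 ± 0.21 (adjusted p = 0.0268) and had the same sign in 3 of 4 pairs. The call on Csf1 was lost without library 1, 2 or 3 of each group, with adjusted p-values of 0.0877, 0.0696 and 0.0699.

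Chemokines were called in both directions. Ccl3 and Ccl4, which attract monocytes and T cells, were higher in every T/S/Z library than in any T/5z library. Ccl4 was at 7.66, 7.59, 8.02 and 7.35 in T/5z and at 11.86, 11.61, 10.99 and 11.55 in T/S/Z, a difference of 3.85 ± 0.20 (adjusted p = 1.93e-05). Ccl3 differed by 3.51 ± 0.12 (adjusted p = 7.66e-06), and Cxcl2, a neutrophil attractant, by 3.75 ± 0.35 (adjusted p = 0.000238). Ccl12, Cxcl3 and Ccl8 were also called higher, with differences of 0.79, 0.78 and 0.59. Ccl8 fell below the 1.5-fold minimum without replicate 2 (0.45) and without replicate 3 (0.57).

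The lower chemokines were Ccl22, a ligand of CCR4 on regulatory T cells, and Cx3cl1, or fractalkine, the ligand of the microglial receptor CX3CR1. Ccl22 was at 6.09, 6.04, 6.08 and 6.47 in T/5z and at 3.71, 3.75, 4.04 and 4.33 in T/S/Z, and differed by -2.21 ± 0.07 (adjusted p = 3.63e-06). Cx3cl1 differed by -1.86 ± 0.20 (adjusted p = 0.00049). Both groups lay above the DMSO means of 0.96 and 1.74.

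For Ccl2, a monocyte attractant, and Cxcl1, a neutrophil attractant, the libraries did not agree on a direction. Ccl2 was at 5.94, 6.18, 5.38 and 4.67 in T/5z and at 5.62, 5.38, 6.08 and 7.15 in T/S/Z, so that the pairs differed by -0.31, -0.80, 0.70 and 2.47. Cxcl1 behaved likewise, with pair differences of -0.64, -0.92, 0.78 and 2.44. The mean differences were 0.52 ± 0.47 (adjusted p = 0.415) for Ccl2 and 0.42 ± 0.50 (adjusted p = 0.534) for Cxcl1, and without replicate 4 they were -0.14 and -0.26. The labels give no batch that separates libraries 1 and 2 from 3 and 4. Ccl7 had a difference of 1.33 with an adjusted p of 0.103. Over the 19 chemokines tested, 6 were higher, 2 were lower and the median difference was 0.42. Il6 was low in both groups, at 2.10 and 2.50, and differed by 0.40 ± 0.09 (adjusted p = 0.0111), below the 1.5-fold minimum.

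Among NF-kB subunits and inhibitors, 5 of 18 tested were called, all higher in T/S/Z, with a median difference of 0.18. They were Nfkbid at 2.36 ± 0.19 (adjusted p = 0.00012), Zc3h12a, a ribonuclease that degrades cytokine mRNAs, at 1.75 ± 0.26 (adjusted p = 0.00216), Nfkbiz at 1.5 ± 0.21 (adjusted p = 0.00144), Rel at 1.31 and Tnfaip3 at 1.14 ± 0.10 (adjusted p = 0.000151). Tnfaip3 encodes A20, a ubiquitin-editing brake on TNF signalling. Nfkb1, Nfkb2 and Rela had differences of 0.01, 0.10 and 0.11, and Nfkbia had 0.44.

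The interferon-inducible GTPases and the factor Irf1 had 11 called lower and 1 called higher among 15 tested, against 4.42% lower over all genes, with a median difference of -1.11. Gbp5, a guanylate-binding protein that acts in defence against intracellular bacteria, was at 6.55, 6.59, 6.33 and 6.68 in T/5z and at 3.11, 3.23, 3.02 and 3.09 in T/S/Z. The difference was -3.42 ± 0.06 (adjusted p = 3.77e-07), a 10.7-fold lower level, while the DMSO mean of 1.23 was below both groups. Irf1, a transcription factor that drives many of these genes, was at 7.57, 7.57, 7.72 and 7.79 in T/5z and at 5.74, 5.81, 6.06 and 5.97 in T/S/Z, and differed by -1.77 ± 0.05 (adjusted p = 3.18e-06). Tgtp2 differed by -1.48 ± 0.15 (adjusted p = 0.000371). Irf8, a lineage factor of microglia, was the exception and was higher by 0.90 ± 0.06 (adjusted p = 4.89e-05). Its T/S/Z mean of 5.91 was still below the DMSO mean of 6.88. The Gbp and immunity-related GTPase genes are close relatives, and reads may be shared between them.

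Of 30 type I interferon-stimulated genes, 8 were called and all 8 were lower in T/S/Z, with a median difference of -0.27. Ifi47 led at -1.55 ± 0.19 (adjusted p = 0.000767), followed by Ifit2 at -1.22 ± 0.10 (adjusted p = 0.000122) and Ifit1 at -1.06 ± 0.07 (adjusted p = 5.92e-05). Irf7 had -0.09 and Mx1 had -0.40. For MHC class I presentation 4 of 18 were called, all lower, with Tap1 at -0.87, Tap2 at -0.83, Tapbpl at -0.78 and Psmb9 at -0.59. Psmb9 missed the minimum without replicate 3 (-0.51) and without replicate 4 (-0.56). Tap1 and Tap2 form the transporter that carries peptides into the endoplasmic reticulum. The class I heavy chains H2-K1 and H2-D1 had differences of 0.20 and 0.17, and the median over the 18 genes was -0.13.

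**Figure D3:**
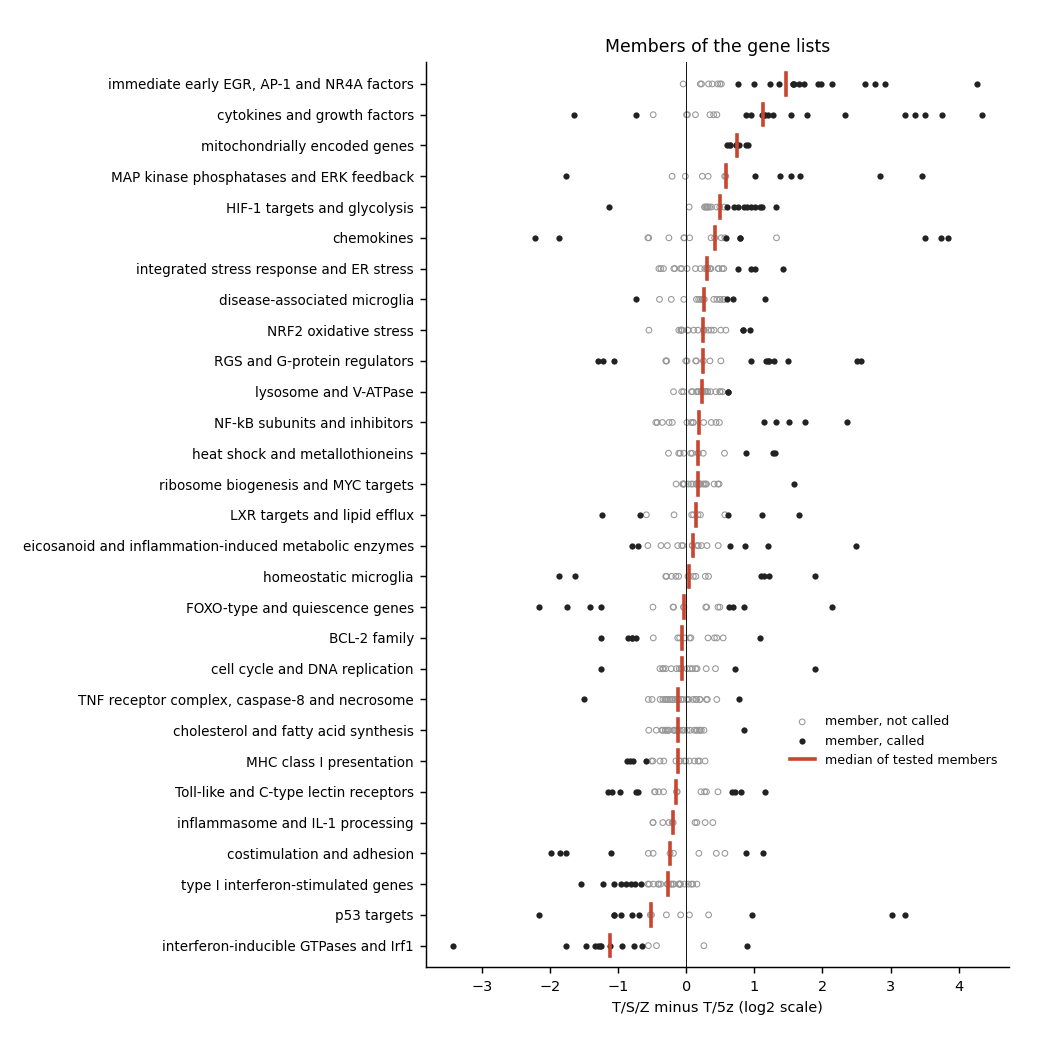
Differences between T/S/Z and T/5z (horizontal axis, log2 scale) for the tested members of 29 gene lists, sorted by their median. Filled points are called members, open points are members that were not called, and red ticks are medians, which run from -1.11 for interferon-inducible GTPases and Irf1 to 1.47 for the immediate early factors.

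The largest negative difference of any gene was that of Calhm6, which encodes a calcium homeostasis modulator channel of immune cells. It was at 6.80, 6.85, 6.91 and 6.82 in T/5z and at 3.08, 3.10, 3.13 and 3.06 in T/S/Z, a difference of -3.75 ± 0.05 (adjusted p = 6.4e-08). The T/S/Z libraries were at the level of DMSO, which had a mean of 3.15. Snn, or stannin, showed the same arrangement, with means of 4.74 in T/5z, 1.95 in T/S/Z and 2.24 in DMSO, and differed by -2.80 ± 0.13 (adjusted p = 1.5e-05). AW112010, an immune-induced transcript annotated as a long RNA, differed by -2.61 ± 0.10 (adjusted p = 8.77e-06). Rn7sk, a small nuclear RNA made by RNA polymerase III that restrains transcription elongation, differed by -2.26 ± 0.26 (adjusted p = 0.000634). It is not normally polyadenylated, so its level in an mRNA library may also read the selection step, which was not tested. Rhof, Sesn1, Trim21, Tnfrsf14, Tspan33, Rcsd1 and Sac3d1 completed the 15, with differences of -2.17 to -1.86.

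Costimulatory and adhesion genes included Cd40, the receptor through which T cells activate myeloid cells. Cd40 was at 7.64, 7.56, 7.63 and 7.98 in T/5z and at 5.76, 5.55, 5.73 and 5.82 in T/S/Z, and differed by -1.98 ± 0.06 (adjusted p = 3.63e-06). Both groups stood far above the DMSO mean of 1.67. Icosl, the ligand of ICOS, differed by -1.85 ± 0.04 (adjusted p = 1.74e-06), and Itga4 by -1.76 ± 0.06 (adjusted p = 5.06e-06). Cd44 and Itga5 were higher, by 1.13 ± 0.14 (adjusted p = 0.000811) and 0.89 ± 0.05 (adjusted p = 3.58e-05). Among 13 tested, 2 were higher, 4 were lower and the median difference was -0.24. Of the Toll-like and C-type lectin receptors, 4 of 19 were higher, with Clec7a (Dectin-1) at 1.15, Cd14 at 0.81 and Clec4d at 0.72, and 5 were lower, with Tlr6 at -1.15, Tlr1 at -1.09 and Clec4a1 at -0.97. The median difference was -0.14.

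Of 30 tested genes of the TNF receptor complex, caspase-8 and the necrosome, 2 were called, against 9.83% of all genes, and the median difference was -0.11. An unadjusted p under 0.05 was found for 20 of the 30, and for 5219 of all 10524 genes. Birc2, which encodes cIAP1, the protein that Smac mimetics target, was at 4.98, 4.79, 4.97 and 5.10 in T/5z and at 3.35, 3.64, 3.48 and 3.40 in T/S/Z. It differed by -1.5 ± 0.09 (adjusted p = 4e-05), with a DMSO mean of 3.28. Traf3 was higher by 0.78 ± 0.11 (adjusted p = 0.00156). Ripk1 differed by 0.10 ± 0.05 (adjusted p = 0.155), Ripk3 by -0.29 ± 0.10 (adjusted p = 0.0606) and Mlkl by -0.07 ± 0.08 (adjusted p = 0.502). Casp8, Cflar, which encodes the caspase-8 regulator cFLIP, and Tnfrsf1a had 0.20, 0.45 and 0.20, and Fadd, Tradd, Map3k7, which encodes TAK1, Xiap and Birc3 had -0.21, -0.12, -0.15, 0.01 and -0.50. These stayed below the 1.5-fold minimum. None of the 10 tested inflammasome genes was called by limma, and 7 of those 10 had an unadjusted p under 0.05. Casp1 and Casp4 had the largest differences, both at -0.49 (adjusted p = 0.00239 and 0.000259), and the median was -0.20.

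In the BCL-2 family 1 of 16 was higher and 5 were lower, with a median of -0.06. Bcl2l1, which encodes the survival protein BCL-XL, was higher by 1.08 ± 0.08 (adjusted p = 9.05e-05). Bmf, a BH3-only promoter of apoptosis, was lower by 1.25 on the log2 scale, with means of 2.15 in T/5z, 0.90 in T/S/Z and 4.55 in DMSO. Bcl2a1a, Bcl2a1b and Bcl2a1d, copies of the survival gene A1 that share much of their sequence, had -0.80, -0.74 and -0.85. Both groups were well above DMSO for Bcl2a1d, at 9.52 and 8.67 against 4.97.

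Receptors and markers of resting microglia moved in both directions. Tmem119, a marker that separates microglia from other macrophages, was at 4.69, 4.88, 4.68 and 5.35 in T/5z and at 3.31, 3.31, 3.21 and 3.24 in T/S/Z, a difference of -1.63 ± 0.12 (adjusted p = 6.88e-05). The T/S/Z libraries were at the DMSO mean of 3.32, and the T/5z libraries were above it. P2ry13, an ADP receptor, differed by -1.87 ± 0.13 (adjusted p = 5.34e-05). Cxcr4, the receptor of CXCL12, was at 4.48, 4.71, 4.94 and 4.88 in T/5z and at 6.59, 6.48, 6.67 and 6.83 in T/S/Z, and differed by 1.89 ± 0.07 (adjusted p = 8.39e-06). Its DMSO mean of 7.38 was above both. The UDP receptor P2ry6 was higher by 1.14 ± 0.06 (adjusted p = 2.77e-05) and Cx3cr1 by 1.09. Of 17 tested homeostatic genes, 4 were higher and 2 lower, with a median of 0.05. For disease-associated microglial genes 3 of 19 were higher (Clec7a, Spp1 and Lgals3) and 1 was lower (Csf1), with a median of 0.27, where 5.42% of all genes were higher and 4.42% lower. Spp1, at 0.69, missed the 1.5-fold minimum without replicate 4 (0.53), as Lgals3, at 0.60, did without replicate 1 (0.58) and without replicate 2 (0.54).

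G-protein regulators and chemoattractant receptors had 8 of 21 called higher and 3 lower, with a median of 0.25. Rgs1, which dampens chemokine receptor signalling, differed by 2.57 ± 0.14 (adjusted p = 2.3e-05), and Ccr1, a receptor of CCL3, by 2.50 ± 0.12 (adjusted p = 1.65e-05). Rgs2 was higher by 1.5 ± 0.10 (adjusted p = 5.04e-05). Adora2a, an adenosine receptor, Gpr65, a proton sensor, and Fpr2, a formyl peptide receptor, were lower, at -1.30, -1.22 and -1.07. The urokinase gene Plau and its receptor Plaur were both higher in T/S/Z, by 3.18 ± 0.32 (adjusted p = 0.00031) and 2.98 ± 0.28 (adjusted p = 0.000231). Bhlhe40 was higher by 1.3 ± 0.12 (adjusted p = 0.000219), and Mir155hg, the host transcript of miR-155, had 0.19 ± 0.16 (adjusted p = 0.397).

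Of 23 tested genes of glycolysis and the HIF-1 response, 10 were higher, against 5.42% of all genes, and 1 was lower, with a median of 0.49. Slc2a1, the glucose transporter GLUT1, was higher by 1.32 ± 0.07 (adjusted p = 2.3e-05), Vegfa by 1.11 ± 0.14 (adjusted p = 0.000838) and Slc16a3, a lactate exporter, by 1.09 ± 0.08 (adjusted p = 8.53e-05). Hk2, Pfkfb3, Pgk1, Pgam1 and Tpi1 were also called, Tpi1 not without replicate 4 (0.55 against 0.60). Adm was lower, at -1.13 ± 0.13 (adjusted p = 0.000668). Hilpda, a lipid droplet protein, was higher by 3.04 ± 0.14 (adjusted p = 1.42e-05), and its T/5z mean of 2.07 was under the DMSO mean of 3.10. Among LXR targets and lipid efflux genes 3 of 12 were higher (Ch25h at 1.66, Plin2 at 1.11, Smpdl3a at 0.61) and 2 were lower (Mylip at -1.23, Nr1h3 at -0.67), with a median of 0.14. Smpdl3a missed the minimum without replicate 2 (0.55). Insig1, at 0.85 ± 0.07 (adjusted p = 9.89e-05), was the called gene of 27 in cholesterol and fatty acid synthesis, which had a median of -0.12.

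Enzymes of eicosanoid and inflammatory metabolism had 4 of 19 higher and 2 lower, with a median of 0.09. Ptgs2, or COX-2, was higher by 2.49 ± 0.45 (adjusted p = 0.00454), Ass1 by 1.20 ± 0.11 (adjusted p = 0.000205) and Pla2g4a by 0.86 ± 0.06 (adjusted p = 5.19e-05). Ncf1, a subunit of the NADPH oxidase, and Nos2 were lower, at -0.79 and -0.71. Nos2 was near the floor, at 1.16 to 1.46 in T/5z and 0.56 to 0.63 in T/S/Z. With each gene's own variance Ptgs2 missed the threshold (adjusted p = 0.0979).

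The called genes of 3 stress lists were all higher in T/S/Z, where 5.42% of all genes were higher. They were 4 of 24 in the integrated stress response (Ppp1r15a at 1.42, Atf4 at 1.01, Trib3 at 0.96 and Chac1 at 0.76; median 0.31), 3 of 21 NRF2 targets (Hmox1 at 0.93, Srxn1 at 0.84, Slc7a11 at 0.83; median 0.25) and 3 of 13 heat shock and metallothionein genes (Hspa1a at 1.3, Mt2 at 1.28, Mt1 at 0.88; median 0.18). Targets of p53 were divided, with 3 of 15 higher and 6 lower and a median of -0.51. Plk2 was higher by 3.03 ± 0.12 (adjusted p = 9.85e-06) along with Gdf15 and Mdm2. Sesn1 was lower by 2.16 on the log2 scale, with Phlda3 at -1.06 and Cdkn1a, the cell cycle inhibitor p21, at -1.06. Genes of FOXO-type quiescence had 4 of 17 higher, led by Irs2 at 2.13, Cited2 at 0.85 and Sgk1 at 0.69, and 4 lower, among them Arrdc3 at -1.75 and Txnip at -1.42, with a median of -0.03.

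The next 3 lists are those of ribosome biogenesis, the lysosome and the cell cycle, to be set against 9.83% called of all genes. Myc, at 1.58 ± 0.32 (adjusted p = 0.00753), was the called gene of 24 in ribosome biogenesis, where the median was 0.17. Its pair differences were 0.68, 0.84, 2.10 and 2.69, and with each gene's own variance it missed the threshold (adjusted p = 0.116), which left 0 of 24. In the lysosome list 2 of 27 were called, Gla and Neu1, both at 0.62, with a median of 0.24. The count was 4 without replicate 3, and without replicate 4 it was 0, where Gla had 0.56 and Neu1 0.57. For the cell cycle Cdt1 was higher by 1.88 ± 0.07 (adjusted p = 8.77e-06) and Pcna by 0.72 ± 0.07 (adjusted p = 0.000248), and Mki67 was lower at -1.25 ± 0.19 (adjusted p = 0.00236), out of 19 tested with a median of -0.06.

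Genes encoded by the mitochondrial genome were higher in T/S/Z for 7 of 9 tested, with a median of 0.74. The T/5z libraries were uneven here. The oxidase subunit gene mt-Co1 was at 11.21, 11.03, 10.36 and 10.34 in T/5z and at 11.44, 11.38, 11.43 and 11.76 in T/S/Z, a difference of 0.77 ± 0.19 (adjusted p = 0.0169). The groups did not overlap, but T/5z libraries 1 and 2 were closer to T/S/Z than to T/5z libraries 3 and 4. mt-Atp8 and mt-Co2 differed by 0.90 ± 0.17 (adjusted p = 0.006) and 0.88 ± 0.15 (adjusted p = 0.00354). The levels of mt-Co2 were far below those of mt-Co1, at 1.73 to 2.20 in T/5z and 2.57 to 3.10 in T/S/Z. The number called was 2 of 9 after quantile normalization, 2 without replicate 3, 2 without replicate 4 and 0 with each gene's own variance. Mitochondrial genes made up 1.14% to 1.45% of the summed FPKM in T/S/Z and 0.652% to 1.15% in T/5z.

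Other named genes also missed the threshold with each gene's own variance, at adjusted p-values of 0.0503 for Rn7sk to 0.203 for Nr4a1. They were Egr3, Fosl1, Fosl2, Klf4, Zc3h12a, Nfkbiz, Hbegf, Lif, Ifnb1, Csf1, Ccl8, Ifi47, Psmb9, Cd44, Traf3, Bmf, Spp1, Hk2, Mt1, Mt2, Slc7a11 and Mki67, and Col1a1, Col1a2, Col3a1, Acta2 and Cspg4 among the markers of other cells. Pdxk and Arhgap19, described below, missed it too.

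Some called genes of the same direction were neighbours. There were 22 runs of at least 3 consecutive tested genes, holding 78 genes (7.54% of those called). They included Gbp5, Gbp7, Gbp3 and Gbp2 on chr3:142496900-142638008, Ifit2, Ifit3, Ifit1bl1, Ifit3b and Ifit1 on chr19:34550710-34650009, and Parp14, Dtx3l and Parp9 with Dirc2 and Hspbap1 on chr16:35694062-35972605, all lower in T/S/Z. A run of Slc20a1, Il1a and Il1b on chr2:129198764-129371139 was higher. The deposited annotation names no build for these positions, and 84.6% of its gene starts equal those of GENCODE M21 on GRCm38. A run of 6 predicted genes on chr1:24612407-24616197 was higher by 0.72 to 0.86. A run of 6 genes of the mitochondrial genome was higher by a similar 0.60 to 0.90. Whether reads were shared between these runs was not tested.

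Promoter sequences were read for 8183 of the 10524 genes, using the first window that RefSeq lists for each gene on GRCm38.p6, from 250 bases before to 50 after the start. The AP-1 site TGANTCA, where N is any base, was present on either strand in 8.43% of the promoters of genes higher in T/S/Z, 5.11% of those lower and 4.69% of all tested. For genes over 4-fold higher it was 6 of 24. The interferon-stimulated response element, searched as GAAA, any 2 bases and GAAA again, had the reverse order, with 2.58% for genes higher, 8.33% for genes lower and 3.32% for all. The cyclic AMP response element TGACGTCA was in 4.92%, 1.88% and 3.48%, the NF-kB motif in 6.79%, 9.14% and 5.17%, the CArG motif in 1.87%, 0.806% and 1.22%, and the antioxidant response element TGACNNNGC in 17.8%, 10.8% and 15.3%, in the same order. The last overlaps the AP-1 site where that is followed by GC. No test was made on these shares, and a match is not evidence of binding.

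The stretches below show such matches in 8 genes with large differences, 5 that were higher and 3 that were lower in T/S/Z. Each runs 5′ to 3′ on the gene's strand with up to 40 bases on either side of the match, and ends before the transcription start. Capitals mark the AP-1 site in Il1rn, Plaur and Il1a, the cyclic AMP response element in Dusp1 and Plk2, and the interferon-stimulated response element in Calhm6, Gbp5 and Tnfrsf14, where the last 2 carry it on the opposite strand.
Il1rn, chr2:24336679-24336765 (+): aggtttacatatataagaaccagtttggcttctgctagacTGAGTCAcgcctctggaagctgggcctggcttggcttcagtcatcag
Plaur, chr7:24462374-24462460 (+): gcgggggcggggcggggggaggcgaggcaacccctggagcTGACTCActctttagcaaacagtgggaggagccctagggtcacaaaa
Il1a, chr2:129309973-129310024 (-): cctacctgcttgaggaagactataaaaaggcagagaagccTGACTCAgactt
Dusp1, chr17:26508568-26508655 (-): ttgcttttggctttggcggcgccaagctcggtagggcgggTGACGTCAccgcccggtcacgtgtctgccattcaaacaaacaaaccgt
Plk2, chr13:110394942-110395029 (+): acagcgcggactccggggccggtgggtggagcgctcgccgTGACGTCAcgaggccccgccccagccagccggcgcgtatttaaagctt
Calhm6, chr10:34127987-34128076 (-): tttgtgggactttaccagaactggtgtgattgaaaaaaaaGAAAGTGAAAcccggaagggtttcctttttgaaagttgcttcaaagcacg
Gbp5, chr3:142496729-142496818 (+): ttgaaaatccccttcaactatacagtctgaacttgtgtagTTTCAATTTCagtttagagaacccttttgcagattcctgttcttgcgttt
Tnfrsf14, chr4:154928092-154928181 (-): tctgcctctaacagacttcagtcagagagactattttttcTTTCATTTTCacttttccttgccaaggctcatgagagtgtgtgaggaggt

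The difference between the stimuli was then measured again with the RIPK1 kinase inhibited, in the 8 libraries of T/S/Z/N and T/5z/N, which are separate from those above. Here 356 genes (3.38%) were called, 189 higher (1.8%) and 167 lower (1.59%) in T/S/Z/N. Of the 570 genes higher in T/S/Z without Nec-1s, 128 (22.5%) were called higher with it, and of the 465 lower genes 104 (22.4%) were called lower with it. The median difference with Nec-1s was 0.28 over the 570 and -0.33 over the 465, against -0.01 over all genes tested. The change in the difference was tested over all 16 libraries as an interaction, which called 681 genes (6.47%), among them 527 of the 1035. Since the 1035 were chosen by their difference without Nec-1s, the direction of that change is not independent of the choice.

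**Figure D4:**
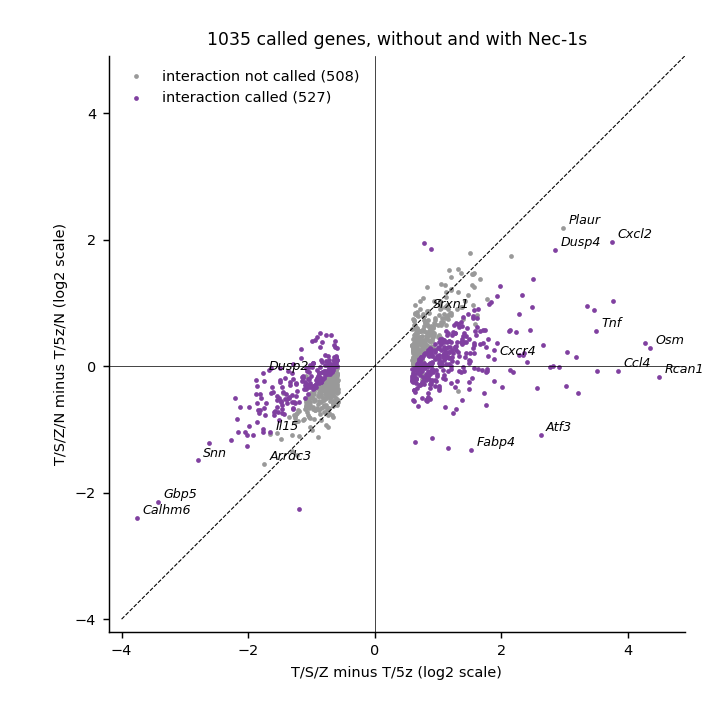
Difference between the stimuli with Nec-1s (vertical axis, log2 scale) against that without Nec-1s (horizontal axis, log2 scale) for the 1035 genes called without Nec-1s, which were chosen by the horizontal value. Purple points are the 527 genes with a called interaction, grey points are the other 508, and the dashed line marks equal differences. Rcan1 and Ccl4 lie near 0 on the vertical axis, Calhm6 and Gbp5 stay below -2, and Atf3 and Fabp4 lie below 0.

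Several of the largest differences were not called with Nec-1s. Rcan1 had -0.17 ± 0.07 (adjusted p = 0.111) between T/S/Z/N and T/5z/N, with an interaction of 4.67 ± 0.18 (adjusted p = 4.63e-09). Ccl4 and Ccl3 had -0.07 and -0.08, with interactions of 3.92 ± 0.26 (adjusted p = 3.48e-07) and 3.59 ± 0.27 (adjusted p = 8.79e-07). Their means with Nec-1s were 5.95 and 6.02 for Ccl4 and 6.71 and 6.79 for Ccl3 in T/S/Z/N and T/5z/N, above the DMSO means of 4.62 and 5.45. Tnf had 0.56 ± 0.10 (adjusted p = 0.00533), under the 1.5-fold minimum, and Egr2, Plau, Plk2, Nr4a3, Egr1 and Rgs1 were not called either, with values of -0.35 to 0.36. Gdf15 was at a difference of -0.42 ± 0.07 (adjusted p = 0.00247), lower in T/S/Z/N in 4 of 4 pairs but also under the minimum. Among lower genes, Tmem119, Dusp2 and P2ry13 had -0.03, -0.11 and -0.21 and called interactions. The median difference of the mitochondrial list with Nec-1s was -0.13.

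Other differences were present in both settings. Calhm6 differed by -2.40 ± 0.05 (adjusted p = 1.36e-07) and Gbp5 by -2.14 ± 0.10 (adjusted p = 4.74e-06) with Nec-1s, both smaller than without it by the interaction test (adjusted p = 3.37e-07 and 8.14e-06). Plaur differed by 2.18 ± 0.22 (adjusted p = 0.000228, or 0.0699 with each gene's own variance), Cxcl2 by 1.97 ± 0.11 (adjusted p = 1.06e-05) and Dusp4 by 1.84 ± 0.10 (adjusted p = 1.03e-05). For Plaur, Slc2a1, Srxn1, Cd44, P2ry6 and Arrdc3 the interaction was not called, with estimates of 0.80 ± 0.41, 0.16 ± 0.08, -0.03 ± 0.08, 0.04 ± 0.18, 0.17 ± 0.12 and -0.20 ± 0.12. Among the MAP kinase phosphatases and feedback inhibitors 7 of 13 were called higher with Nec-1s, against 1.8% of all genes, and 7 of 15 interferon-inducible GTPases and Irf1 were called lower, against 1.59%. With each gene's own variance Dusp6, Dusp7 and Spred2 missed the threshold (adjusted p = 0.0799, 0.108 and 0.0524), as did Gbp3 and Iigp1 (0.0704 and 0.0639). Dusp7, Gbp3 and Iigp1 also missed the 1.5-fold minimum when some replicate number was left out.

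Direction turned for 9 genes, which were singled out after their values were seen. All 9 were higher in T/S/Z than in T/5z and lower in T/S/Z/N than in T/5z/N, each called: Atf3, Id2, Fabp4, Ccrl2, Fnip2, Cd180, Tent5c, Pdxk and Arhgap19. Atf3, a stress-induced transcription factor, was at 7.36, 7.53, 7.58 and 7.17 in T/5z and at 10.33, 10.17, 9.62 and 10.02 in T/S/Z, a difference of 2.62 ± 0.14 (adjusted p = 2.3e-05), and with Nec-1s it differed by -1.09 ± 0.11 (adjusted p = 0.000227). Fabp4, a fatty acid carrier of macrophages, differed by 1.53 ± 0.09 (adjusted p = 2.77e-05) and, with Nec-1s, by -1.32 ± 0.09 (adjusted p = 2.16e-05). Without 1 replicate number Pdxk and Arhgap19 missed the minimum in the setting without Nec-1s (0.57 and 0.51 without replicate 4). With Nec-1s Cd180 and Pdxk missed it without replicate 2 (-0.58 each) and Id2 without replicate 3 (-0.56), and with each gene's own variance Atf3 had an adjusted p of 0.0677. In the setting without Nec-1s, each gene's own variance gave Pdxk and Arhgap19 adjusted p-values of 0.062 and 0.0737. No gene (0 of 465) was called lower without and higher with Nec-1s in limma's test.

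**Figure D5:**
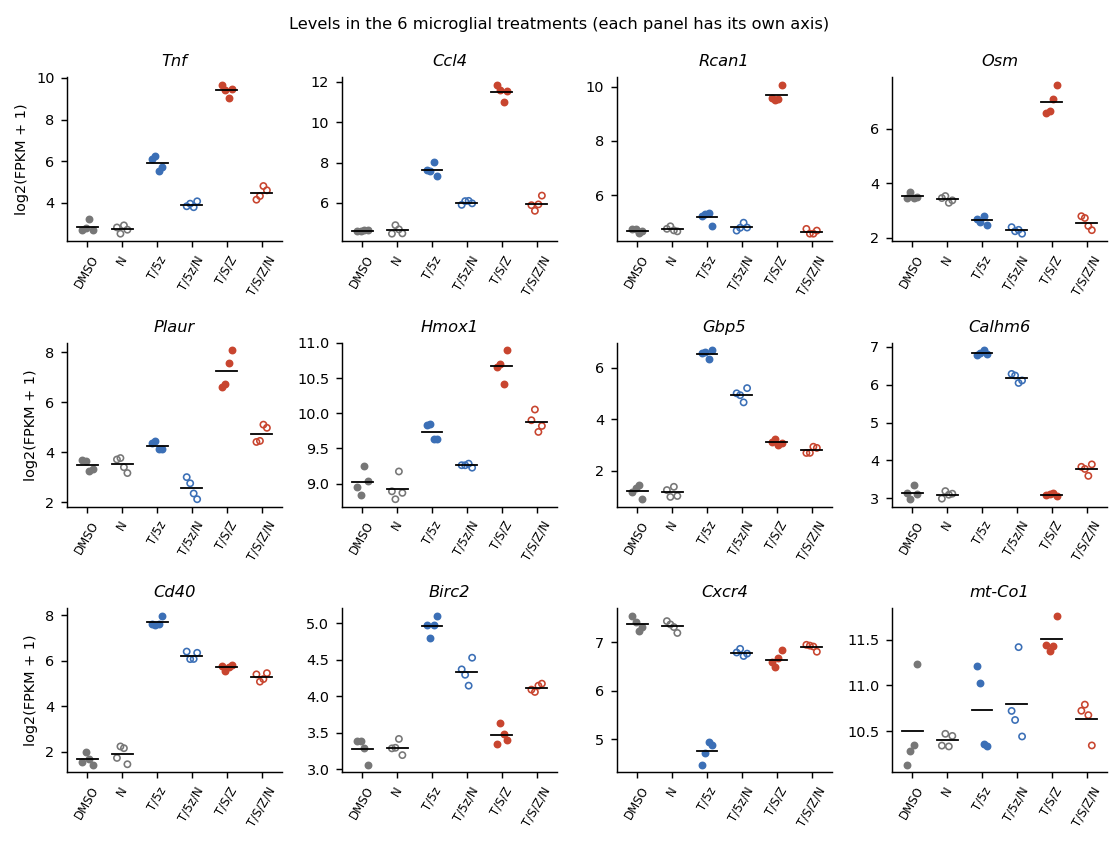
Levels (log2(FPKM + 1)) of 12 genes in the 6 microglial treatments, each panel on its own axis, with 4 libraries as points and their mean as a bar. Open points are treatments with Nec-1s. T/S/Z stands apart from the other 5 treatments for Tnf, Ccl4, Rcan1 and Osm, T/5z is the highest treatment for Gbp5, Calhm6, Cd40 and Birc2, and T/5z is the lowest for Cxcr4.

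Set beside the vehicle, the called genes did not all depart from DMSO in the same way. For the 570 genes higher in T/S/Z the DMSO mean lay below both stimuli for 242 (42.5%), between them for 180 (31.6%) and above both for 148 (26.0%). Tnf, Ccl3 and Ccl4 were of the first kind, Osm, Hilpda and Dusp1 of the second, and Cxcr4, Irf8, Rgs2 and Plin2 of the last. For the 465 genes lower in T/S/Z the numbers were 195 (41.9%), 174 (37.4%) and 96 (20.6%), with Gbp5, Cd40, Ccl22 and Irf1 in the first set, Calhm6, Snn and Trim21 in the second, and Sesn1, Bmf, Txnip and Arrdc3 in the last. Over all genes tested the DMSO mean lay below both stimuli for 35.5%, between them for 16.7% and above both for 47.8%. These positions are those of group means, and the differences from DMSO were not tested here.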

How the data were processed

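RNA-seq libraries of microglia were aligned, quantified, scaled and log2 transformed by the authors in Array Studio (OmicSoft 10.1.1.3). The study's methods give the values as log2 FPKM. They were read as log2(FPKM + 1) because the lowest value of replicate 4 is 0. Averaged across the 6 treatments, a gene has the same level in replicates 1 to 4 as deposited (largest difference 6.67e-05), a step the sources used here do not describe. Replicates 1 to 3 hold negative values and replicate 4 holds 0 of them. A step that only shifted each gene per replicate would leave differences between same-numbered libraries unchanged. Whether it did more than shift could not be read from the values. For summed FPKM and for the alternative with 5 added, negative values were set to 0. Total counts are not given in the table, so depth is unknown and no count test was run.

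Differences were tested with limma 3.58.1 in R 4.3.3, with treatment and replicate number in the model, a variance trend on the mean level and a 2-sided test. Called genes had a difference of over 1.5-fold and a Benjamini-Hochberg adjusted p under 0.05 over 10524 genes. Without Nec-1s and with Nec-1s 8 libraries each were fitted, and for the interaction 16. The fit was tested on simulated data. Named genes were the 15 largest calls in each direction with 4 of 4 pairs alike and a mean of at least 3 in the higher group, up to 3 called members of each list per direction (the 2 largest where none was called) and 24 genes whatever their values; predicted models were left out. Other called list members are named as examples, chosen after their values were seen. The members and lists were chosen with earlier results of these data known. Promoter sequences are from RefSeq. The annotation marks 5257 of the tested genes as confounded, a term it does not define, and these hold 49.2% of the called genes. Near-identical genes may share reads. Some genes are not reported here.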

Additional observations from a re-analysis of the deposited data

Results flagged for a closer look

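In 12 of the 278 group levels checked (139 named genes in both stimuli) 1 library lay far from the other 3 of its group, where chance alone would give about 1 in 20. Library 4 was the one in 11 of the 12. The outlying log2 levels in T/S/Z library 4 were Rcan1 at 10.07, Il1a at 6.41, Gdf15 at 7.22, Ccr1 at 3.30, Atf4 at 8.11 and mt-Co1 at 11.76. Those in T/5z library 4 were Pla2g4a at 4.26, Cflar at 6.25, Birc3 at 6.85, Itga4 at 6.46 and Ccl22 at 6.47. Trim21 in T/S/Z library 2 was at 2.82.

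For 87 named genes the difference between the stimuli changed with Nec-1s by the interaction test in limma (over 1.5-fold, adjusted p under 0.05). The values that follow are the difference without Nec-1s minus the difference with it, on the log2 scale. Since most of these genes were named for a large difference without Nec-1s, the sign is not independent of the choice.

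Positive values included Rcan1 at 4.67, Osm at 4.06, Ccl4 at 3.92, Egr2 at 3.91, Gdf15 at 3.64, Ccl3 at 3.59, Plk2 at 3.34, Plau at 3.04 and Tnf at 2.94. Next in size were Nr4a3 at 2.94, Rgs1 at 2.92, Hilpda at 2.81, Egr1 at 2.79, Il1a at 2.72, Dusp1 at 2.58, Il1rn at 2.41, Nfkbid at 2.15 and Cdt1 at 2.13. These were followed by Rgs2 at 1.85, Cxcl2 at 1.78, Cxcr4 at 1.77, Mt2 at 1.60, Ptgs2 at 1.56, Irs2 at 1.56, Hspa1a at 1.54, Plin2 at 1.31 and Nfkbiz at 1.29. Smaller positive values were those of Zc3h12a at 1.17, Mt1 at 1.16, Ccr1 at 1.13, Spry2 at 1.12, mt-Atp8 at 1.12, mt-Co2 at 1.01, Dusp4 at 1.01, mt-Co1 at 0.94 and Bcl2l1 at 0.91. Below 0.91 were Ppp1r15a at 0.90, Atf4 at 0.89, Irf8 at 0.88, Mdm2 at 0.86, Clec7a at 0.85, Cited2 at 0.84, Insig1 at 0.82, Sgk1 at 0.79 and Tnfaip3 at 0.77. The smallest were Gla at 0.76, Trib3 at 0.73, Spp1 at 0.70, Neu1 at 0.66 and Pcna at 0.62.

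Negative values included Ccl22 at -1.71, P2ry13 at -1.66, Dusp2 at -1.64, Tmem119 at -1.61, Sac3d1 at -1.55, Trim21 at -1.48, Rcsd1 at -1.43, AW112010 at -1.40 and Calhm6 at -1.35. Then came Rhof at -1.34, Snn at -1.31, Gbp5 at -1.28, Birc2 at -1.28, Icosl at -1.26, Txnip at -1.22, Sesn1 at -1.12, Adora2a at -1.10 and Rn7sk at -1.09. Further negative values were Cd40 at -1.04, Fpr2 at -0.98, Tlr6 at -0.98, Cx3cl1 at -0.98, Adm at -0.97, Bmf at -0.96, Tspan33 at -0.93, Tgtp2 at -0.91 and Ifi47 at -0.90. The remaining ones were Cdkn1a at -0.85, Mylip at -0.84, Irf1 at -0.77, Tlr1 at -0.76, Tnfrsf14 at -0.76, Itga4 at -0.71, Clec4a1 at -0.65, Nr1h3 at -0.65, Birc3 at -0.65 and Ncf1 at -0.60.

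Some of these interactions were not called when 1 replicate number was left out. They were Cx3cl1 (-1.06) and Adm (-0.85) without replicate 2, Rn7sk (-1.13, -0.91 and -1.28) without replicate 1, 2 or 3, Ncf1 (-0.58 each) without replicate 1 or 4, and Ptgs2 (1.78, 1.86, 1.46 and 1.15) without each of the 4 in turn. Without replicate 3 they were Cx3cl1 (-0.96), Zc3h12a (1.15), Spp1 (0.61), mt-Co1 (0.65) and mt-Co2 (0.79). Without replicate 4 they were Nfkbiz (1.09), Zc3h12a (0.89), Spp1 (0.56), mt-Co1 (0.75), mt-Co2 (0.94), Pcna (0.52), Ifi47 (-0.71), Nr1h3 (-0.55) and Tnfrsf14 (-0.61).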

How the results depend on the processing

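The direct comparison called 1035 genes, 570 of them higher and 465 lower. Adding 5 to the linear values gave 611 (372 and 239), requiring a mean log2 value of at least 3 gave 652 (376 and 276), without the genes marked as confounded 526 (285 and 241), and with a minimum of 2-fold 399 (243 and 156). With Nec-1s the count of 356 (189 and 167) became 159 (94 and 65) with 5 added and 72 (44 and 28) at 2-fold. The interaction count of 681 (397 and 284) became 396 (260 and 136) with 5 added and 227 (157 and 70) at 2-fold, where the share of positive calls moved from 58.3% to 69.2%. Fewer genes were tested where a mean was required or marked genes were left out, a larger number added shrinks the differences of low genes, and a higher minimum can only lose calls. The other alternatives that left out no library gave 821 calls (each gene's own variance) to 1047 (unadjusted p). Among gene lists, requiring the mean left 8 called cytokines of 17 and 7 interferon-inducible GTPases of 12. Leaving out 1 replicate number at a time gave 983 to 1104 calls without Nec-1s, 350 to 376 with it and 579 to 724 for the interaction. Of the 356 calls with Nec-1s, 92 (25.8%) were lost in at least 1 of these fits, as were 199 (29.2%) of the 681 interaction calls.

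Without the replicate block, 1043 genes were called in the direct comparison, 353 with Nec-1s and 689 for the interaction. Same-numbered libraries had correlations of deviations from -0.308 to -0.041 and others from -0.021 to 0.261. The replicate means of each gene were equalised in the deposited values, so the pairing could not be read from them.

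The sign changed for Ccl2 (-0.14 without replicate 4, up to 0.95 without replicate 2), Cxcl1 (-0.26 and 0.86 likewise) and Xiap (-0.0088 after quantile normalization, and from -0.0213 without replicate 2 to 0.0322 without replicate 1). None of these 3 was called, and the cause was not tested. Of 274 values for named genes, 122 changed under at least 1 alternative, nearly all by losing a call (235 losses against 4 changes of sign). The number of reads per library is not given, so the precision that depth allows is unknown.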

Other observations

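With Nec-1s, 115 genes were called that had not been called without it, of which 94 had the same sign in both settings, as did 64.7% of all genes tested. They were singled out after their values were seen. For 32 of the 115 the interaction was called. Il6, the cytokine that leads the acute phase response, was among them at 0.73, but its levels with Nec-1s were near or below 0, at -0.43, -0.51, 0.01 and 0 in T/5z/N and 0.75, 0.56, 0.34 and 0.33 in T/S/Z/N. The call was lost without replicate 1 or replicate 2, which hold the negative values (adjusted p = 0.0567 and 0.0645 in limma), and the interaction was -0.33 ± 0.33 (adjusted p = 0.51). Cxcl1 was called lower with Nec-1s, at -0.92 ± 0.15 (adjusted p = 0.00279 in limma), or 0.11 with each gene's own variance, and its interaction was not called (adjusted p = 0.0979).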
